A study of Rattus norvegicus with 6 samples.

Results

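The enzymes that make cholesterol, and Insig1, which restrains them, were followed in visceral fat taken from beside the pancreas of 6 Wistar rats, an outbred strain. The members were 8 named genes: Insig1, Hmgcs1, Sqle, Idi1, Fdps, Fdft1, Lss and Cyp51. Every probe set annotated with exactly 1 of these symbols was taken, which gave 11 probe sets of the 31042 on the array that are not controls, for 7 of the 8 genes. The expression of Hmgcs1 was not analysed here. Of the rats, 3 ate standard chow (lean 14, 18 and 19). The other 3 had an energy-rich cafeteria diet during 30 days (obese 29, 32 and 42), and each rat gave 1 array. Sex and age were not given in the sources used here, and the tissue was frozen whole, so each value is a mean over the cell types of the depot.

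Cholesterol is built from acetyl-CoA through mevalonate and farnesyl pyrophosphate, and the pathway becomes specific to sterols when squalene is formed. Its genes are switched on together by SREBP-2, a transcription factor held in the endoplasmic reticulum with its escort Scap. INSIG proteins retain that complex when sterols are plentiful, and Insig1 is itself a target of the SREBPs. Fat stores much of the body's free cholesterol in lipid droplets, and adipocytes make little of it compared with liver. Insig1 is also known to follow adipocyte differentiation and insulin.

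Promoter sequence is shown for Insig1, Fdps, Lss and Cyp51, because on each of these genes the same rat of each diet group had the highest level. The lines give the 250 bases before the annotated start from RefSeq, 5′ to 3′ on the gene's own strand, with capitals marking matches on either strand to CCAAT (the NF-Y box), GGGCGG (the Sp1 GC box) and CACGTG (an E-box).
Insig1, GRCr8, chr4:8057770-8058019, minus strand: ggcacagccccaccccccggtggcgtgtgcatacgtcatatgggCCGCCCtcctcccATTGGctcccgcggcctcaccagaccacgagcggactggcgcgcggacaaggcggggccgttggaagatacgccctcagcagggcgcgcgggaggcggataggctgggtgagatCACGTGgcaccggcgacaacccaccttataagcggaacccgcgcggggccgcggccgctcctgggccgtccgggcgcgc
Fdps, GRCr8, chr2:176804817-176805066, minus strand: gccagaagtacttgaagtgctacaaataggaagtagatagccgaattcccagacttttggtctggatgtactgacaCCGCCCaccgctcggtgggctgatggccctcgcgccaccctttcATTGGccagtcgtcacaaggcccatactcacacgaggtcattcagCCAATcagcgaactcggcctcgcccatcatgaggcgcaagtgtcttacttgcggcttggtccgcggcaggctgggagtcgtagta
Lss, GRCr8, chr20:12118231-12118480, minus strand: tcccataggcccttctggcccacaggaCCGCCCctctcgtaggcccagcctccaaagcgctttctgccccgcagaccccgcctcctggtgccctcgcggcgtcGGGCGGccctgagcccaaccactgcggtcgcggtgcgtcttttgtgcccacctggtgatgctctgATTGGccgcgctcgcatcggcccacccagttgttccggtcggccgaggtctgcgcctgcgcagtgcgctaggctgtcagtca
Cyp51, GRCr8, chr4:30991443-30991692, plus strand: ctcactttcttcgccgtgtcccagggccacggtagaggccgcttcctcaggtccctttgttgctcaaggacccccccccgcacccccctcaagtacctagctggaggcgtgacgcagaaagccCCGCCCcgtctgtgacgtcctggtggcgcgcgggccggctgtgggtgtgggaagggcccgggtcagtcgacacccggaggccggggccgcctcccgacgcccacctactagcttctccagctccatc
No capitals in these lines overlap another match. Of the members, 6 had an entry in the RefSeq table, and Sqle and Fdft1 had none. CCAAT was found upstream of 5 of the 6 and of 9 of 11 other cholesterol synthesis enzymes, against 34% of all 33469 promoters in the table. GGGCGG was found upstream of 5 of the 6 and of 10 of the 11, against 30.5% of promoters. Insig1 alone of the 6 had CACGTG, which 5.59% of promoters hold. The core of a sterol regulatory element, spelled TCACNCCAC, was found in 0 of the 6 and in 0.974% of promoters, which says only that these letters are not in these windows. A match is a description of letters and no measurement of binding.

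Insig1 was higher on every obese array than on every lean one, by 0.84 on the log2 scale (standard error, SE, 0.18). Fdft1, squalene synthase, was also higher without overlap, by 0.41. The other enzymes overlapped between diets, with Lss, Cyp51 and Fdps higher by 0.25, 0.26 and 0.16 and with Idi1 and Sqle at -0.02 and -0.26. In all, 5 of the 7 measured members were higher on average, where 53.7% of all 14217 genes were. The members' median difference was 0.25, against 0.016 over all genes. Without lean 14 that median was 0.12, and without obese 32 it was 0.093.

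No member passed limma's test at an adjusted p under 0.05 over all probe sets, which 0.00966% of probe sets did (3 of 31042, 1 higher and 2 lower). At an unadjusted p under 0.05, Insig1 and Fdft1 were the 2 members higher and none was lower, where 7.2% of genes were higher and 6.13% lower. The groups did not overlap for these same 2 of 7 members, where 12.2% of all genes were higher without overlap and 8.18% lower. Members were therefore described by their values, and the number of arrays limits the precision.

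Insig1 lay at 10.82 on lean 14, 11.50 on lean 18 and 11.06 on lean 19. On the obese arrays the values were 11.82, 12.10 and 11.98 for rats 29, 32 and 42. The lowest obese value was thus 0.32 above the highest lean one. The means were 11.13 ± 0.34 (SD, n = 3) on lean and 11.97 ± 0.14 (SD, n = 3) on obese arrays, a 1.79-fold difference with a 95% interval of 0.43 to 1.26 on the log2 scale (limma adjusted p = 0.229). A difference at least this large and in this direction was found for 0.359% of genes (51 of 14217). Insig1 is measured by 1 probe set only.

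**Figure D1:**
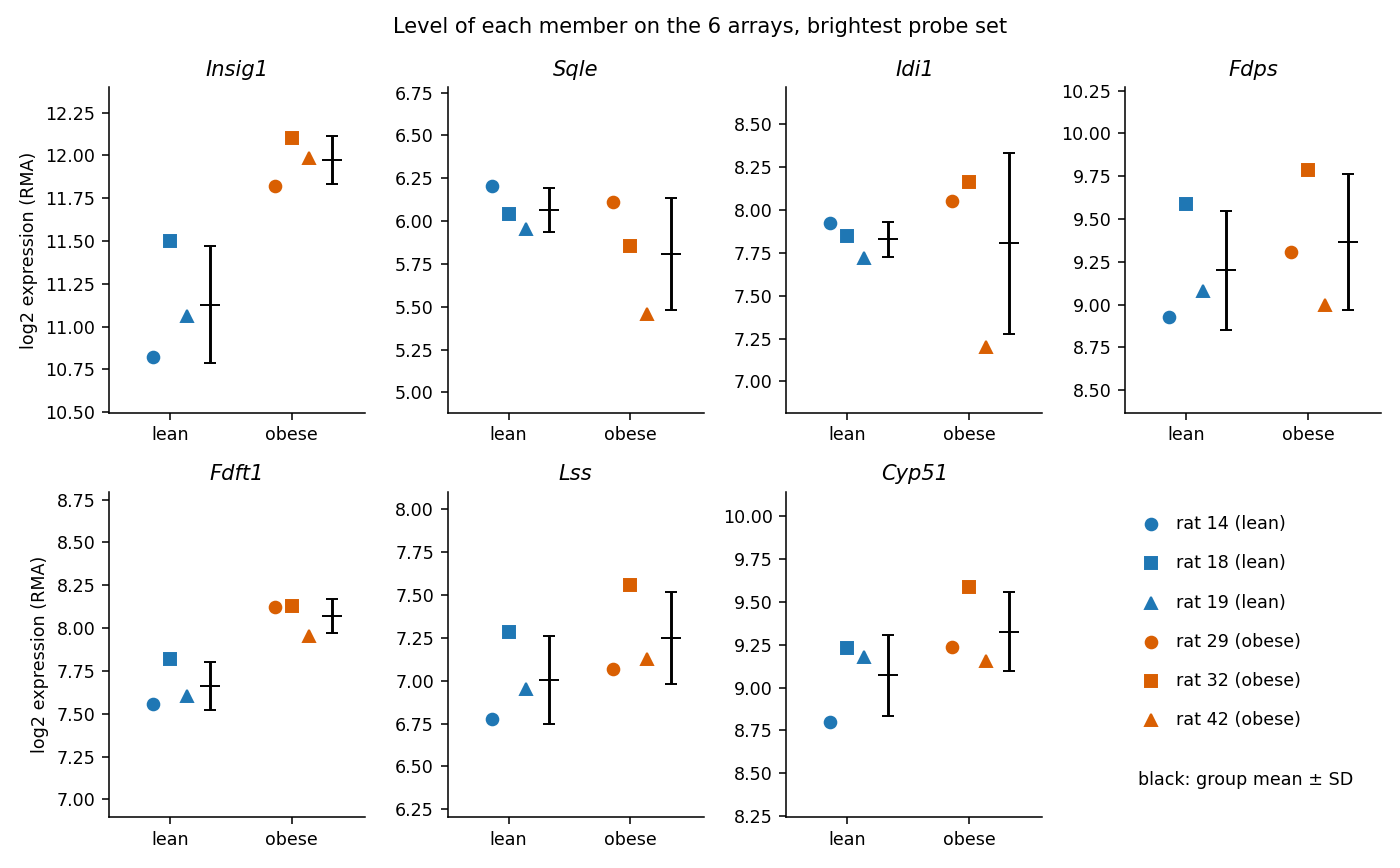
Log2 expression of the 7 measured members on each of the 6 arrays, with 1 panel per gene spanning the same height in log2 units. Points are rats, with blue for lean and orange for obese (like shapes do not pair rats), and the black mark is the group mean with its SD. Insig1 and Fdft1 are the 2 panels in which all orange points lie above all blue ones, and obese 42 stands low for Idi1 at 7.20.

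Fdft1, which joins a pair of farnesyl pyrophosphates into squalene and so commits the pathway to sterols, lay at 7.56, 7.82 and 7.61 on lean 14, 18 and 19. On obese 29, 32 and 42 it lay at 8.12, 8.13 and 7.95. Each obese array was above each lean one, with 0.13 between the groups at their nearest. The means were 7.66 ± 0.14 and 8.07 ± 0.10 (SD, n = 3 each), a 1.33-fold difference (SE 0.10, 95% interval 0.16 to 0.65, limma adjusted p = 0.291). A second, dimmer probe set was higher by 0.21 (SE 0.12), and there lean 18 at 7.11 lay above obese 42 at 7.003. Non-overlap thus held on 1 of the 2 Fdft1 probe sets.

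Idi1 and Fdps act just before squalene. Idi1, the isomerase that activates isopentenyl pyrophosphate, lay between 7.72 and 7.92 on the lean arrays, at 8.05 on obese 29 and 8.17 on obese 32, and at 7.20 on obese 42. Obese 29 and 32 were thus above all lean arrays and obese 42 below all of them. The difference of -0.02 (SE 0.24, limma adjusted p = 0.977) therefore averaged arrays that went opposite ways, and it was 0.28 without obese 42 and 0.023 without lean 14. The dimmer probe set of Idi1 showed the same arrangement, with 6.41 and 6.45 on obese 29 and 32 and 5.83 on obese 42 against 6.02 to 6.27 on lean arrays. Scaling by the median of each array moved the Idi1 difference to 0.0013, so it has no stable sign.

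Fdps, which makes farnesyl pyrophosphate, lay at 8.93 on lean 14, 9.59 on lean 18 and 9.08 on lean 19. The obese arrays gave 9.31 on obese 29, 9.78 on obese 32 and 8.999 on obese 42. The span was 0.66 within the lean and 0.79 within the obese group, both wider than the difference of 0.16 between them (SE 0.24, 95% interval -0.40 to 0.73, limma adjusted p = 0.807). Without obese 32 the difference was -0.046, without lean 14 it was 0.029 and without lean 18 it was 0.36.

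After squalene come Sqle, Lss and Cyp51. Sqle, squalene epoxidase, was the member with the lowest difference, at 6.21, 6.04 and 5.95 on lean 14, 18 and 19 and at 6.11, 5.86 and 5.46 on obese 29, 32 and 42. Obese 29 lay inside the lean range, the others below it. The difference of -0.26 had an SE of 0.17 (95% interval -0.66 to 0.14, limma adjusted p = 0.578). It was -0.083 without obese 42, -0.014 without both obese 42 and lean 14, and -0.41 without obese 29. These values are close to the array medians of 5.63 to 5.68, where a probe set's background is a larger part of its signal.

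Lss, lanosterol synthase, which closes the sterol rings, lay at 6.78, 7.28 and 6.95 on the lean and at 7.07, 7.56 and 7.13 on the obese arrays. Lean 18 was above obese 29 and obese 42. Its 2 probe sets were higher by 0.25 (SE 0.18, limma adjusted p = 0.607) and 0.21 (SE 0.16, limma adjusted p = 0.632), and lean 14 was the lowest array on both. The difference of 0.25 was 0.093 without obese 32, 0.13 without lean 14 and 0.38 without lean 18. Cyp51, the lanosterol demethylase, lay at 8.80, 9.23 and 9.18 on the lean and at 9.24, 9.59 and 9.16 on the obese arrays. Its 2 probe sets were higher by 0.26 (SE 0.16, limma adjusted p = 0.562) and 0.29 (SE 0.22, limma adjusted p = 0.619), with lean 18 above obese 42 on both. The difference of 0.26 was 0.12 without lean 14 and 0.13 without obese 32. The brighter one carries the suffix _s_at, by which the maker marks probe sets that can match transcripts of more than 1 gene.

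**Figure D2:**
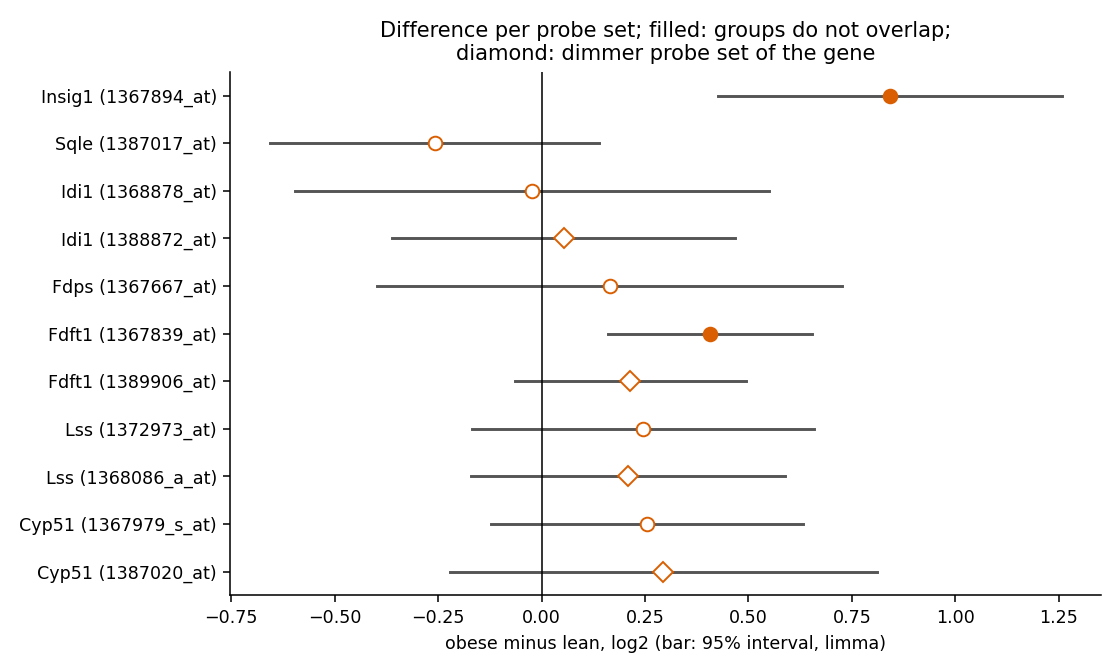
Difference between obese and lean arrays on the log2 scale for each of the 11 probe sets, with its 95% interval from limma as a bar. Filled points mark probe sets whose groups do not overlap, and diamonds mark the dimmer probe set of a gene. The bars of Insig1 (0.43 to 1.26) and of the brighter Fdft1 probe set (0.16 to 0.65) lie above 0, and the other 9 bars cross it.

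Most of the member enzymes shared the rat that was highest within each diet group. This pattern was noticed after the values were seen. Lean 18 was the highest lean array and obese 32 the highest obese array for 4 of the 6 member enzymes (Fdps, Fdft1, Lss and Cyp51) and for Insig1, the genes whose promoters are printed above apart from Fdft1. Over all genes that combination was found for 10.5%. Within the lean group Sqle and Idi1 were instead highest on lean 14, and within the obese group Sqle was highest on obese 29. The mean of the 6 enzymes, each centred on its own mean, was 0.097 on lean 18, while lean 14 had -0.17 and lean 19 had -0.12. It was 0.31 on obese 32, 0.11 on obese 29 and -0.22 on obese 42, the lowest of all arrays. Insig1, centred likewise, was lowest on lean 14 at -0.73 and stood at 0.43 on obese 42. On obese 42 Idi1 and Sqle were at their lowest of all arrays, while Fdft1 was above all lean arrays.

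The 12 other cholesterol synthesis enzymes measured, none of them a member, were led by the same rats. Lean 18 and obese 32 were both highest in their groups for 10 of the 12, and obese 32 was the highest obese array for all 12. Between the diets 11 of 12 were higher on average with a median of 0.094, but without obese 32 only 4 of 12 were higher and the median was -0.055. Without lean 14, 7 of 12 were higher. None passed limma's test, and at an unadjusted p under 0.05 there was 1, which was lower, where 6.13% of all genes were.

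That gene was Lbr, a sterol reductase that is also the lamin B receptor of the nuclear envelope, at 7.86, 7.56 and 7.32 on lean 14, 18 and 19 and 7.13, 7.19 and 6.88 on obese 29, 32 and 42 (-0.51, SE 0.15, limma adjusted p = 0.331). Its groups did not overlap. Mvd, which makes isopentenyl pyrophosphate, and Hsd17b7, a sterol ketoreductase, were higher by 0.25 (SE 0.18) and 0.22 (SE 0.23), and both overlapped between diets. Dhcr7, which catalyses the last step to cholesterol in one branch, differed by 0.062 (SE 0.30) and spanned 7.98 to 8.99 within the lean group.

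Insig1 has a paralog, Insig2, which also retains the SREBP complex but is not an SREBP target in the same way. Insig2 lay at 8.49, 8.41 and 8.30 on the lean and at 8.33, 8.43 and 8.04 on the obese arrays, with a difference of -0.13 (SE 0.12, limma adjusted p = 0.688). The groups overlapped. The log2 value of Insig1 minus that of Insig2 on the same array was 2.33, 3.09 and 2.76 on lean 14, 18 and 19 and 3.49, 3.67 and 3.95 on obese 29, 32 and 42. It was higher by 0.98 on the obese arrays, in 3 of 3 of them against every lean array (exact two-sided permutation test, p = 0.10, the smallest that 3 against 3 can give).

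The genes of sterol sensing and SREBP processing, Insig2 among them, showed no shared direction. Of 11 measured, 5 were higher and 6 lower, with a median of -0.058, 0 without overlap and 0 at an unadjusted p under 0.05. That median was -0.0019 without obese 32 and -0.0072 without obese 42. Srebf2, which encodes SREBP-2, differed by 0.13 (SE 0.14) and Srebf1, which encodes SREBP-1, by 0.086 (SE 0.14). Scap was higher by 0.17 (SE 0.099), with obese 32 at 7.93 inside the lean range of 7.84 to 7.97. Rnf139 and Rnf145, ubiquitin ligases of the endoplasmic reticulum, lay at -0.17 (SE 0.11) and -0.14 (SE 0.11). SREBP activity is set by protein cleavage, which RNA levels do not measure.

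Fatty acid synthesis genes, targets of SREBP-1, were led by the same rats as most of the cholesterol enzymes but mostly lay lower on the obese arrays. Lean 18 and obese 32 were both highest in their groups for 11 of 12, and 10 of 12 were lower on average, where 6587 of all 14217 genes were. The median of the 12 was -0.36. That median was -0.22 without obese 42 and -0.52 without obese 32. None passed limma's test, and 4 were lower at an unadjusted p under 0.05, where 6.13% of all genes were. Elovl6, a fatty acid elongase, lay at 8.67, 10.35 and 9.80 on the lean and 8.10, 8.83 and 7.70 on the obese arrays (-1.40, SE 0.45, limma adjusted p = 0.347). Acaca, acetyl-CoA carboxylase, lay at -0.96 (SE 0.35), and the desaturases Fads2 and Fads1 at -0.40 (SE 0.091) and -0.32 (SE 0.12). The Fads2 values, 4.90 to 5.48, are dim and lie below the array medians of 5.63 to 5.68. Insig1 and 10 of these genes thus had differences of opposite sign on the same arrays, while 2 of the 12 were higher, as Insig1 was.

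**Figure D3:**
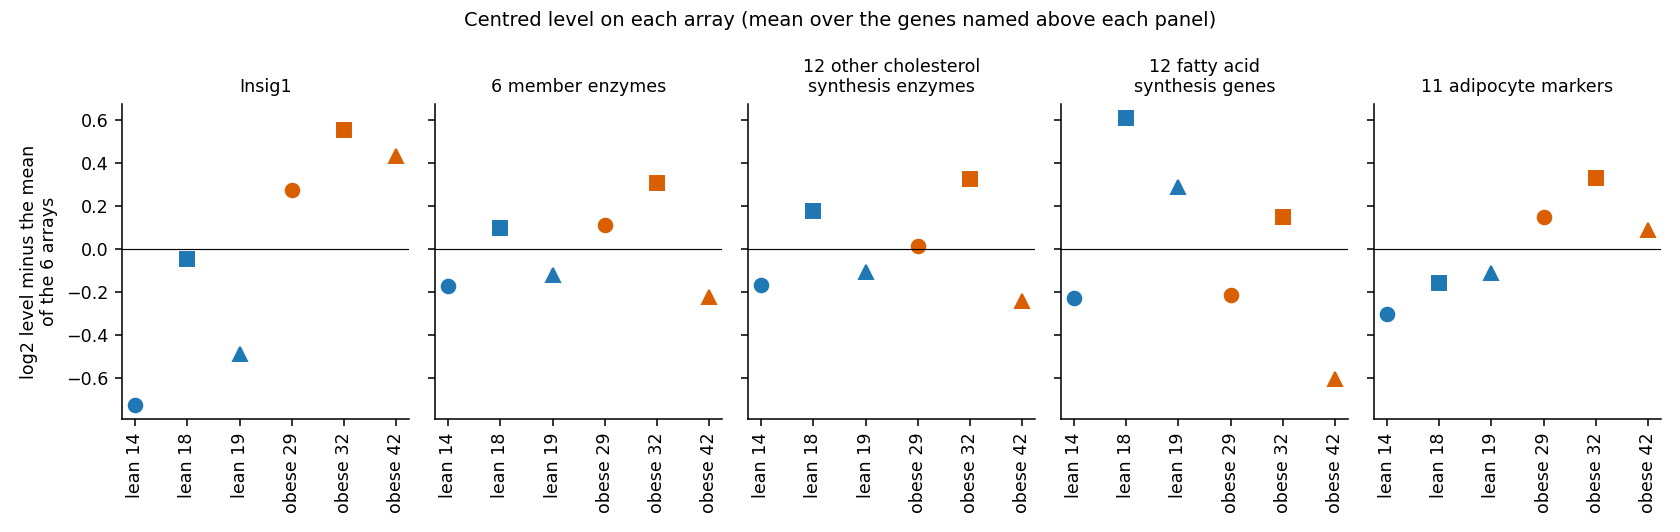
Log2 level on each array minus the mean of the 6 arrays, for Insig1 and for the mean of each gene list named above a panel, with blue for lean and orange for obese rats. Lean 18 and obese 32 are the highest of their groups in the first 4 panels. Obese 42 is lowest for the member enzymes (-0.22), the other cholesterol synthesis enzymes (-0.24) and fatty acid synthesis (-0.61). Insig1 and the adipocyte markers are the panels in which all orange points lie above all blue ones.

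Genes that respond to sterol excess through the LXR receptors, or that move and esterify sterols, were lower on average for 6 of 9, with a median of -0.33. None passed limma's test, and 1 was higher and 3 lower at an unadjusted p under 0.05, where 7.2% of all genes were higher and 6.13% lower. Ch25h, which makes 25-hydroxycholesterol, an oxysterol that binds INSIG proteins, lay at -1.10 (SE 0.16, limma adjusted p = 0.146), and its groups did not overlap. Mylip, a ligase that degrades lipoprotein receptors, lay at -0.53 (SE 0.13) and Nr1h2, which encodes LXR-beta, at -0.33 (SE 0.088), both without overlap. Of all genes, 8.18% were lower without overlap. A dimmer Nr1h2 probe set was higher by 0.10 (SE 0.13) and overlapped. Abcg1, a sterol exporter, was higher by 0.53 (SE 0.21), and obese 29 at 9.33 lay below lean 19 at 9.46. Of its dimmer probe sets, one was higher by 0.65 (SE 0.16) without overlap and the other by 0.25 (SE 0.16) with overlap. Abca1, another sterol exporter, lay at -0.33 (SE 0.14) with overlap on its brightest probe set. Its dimmer probe sets lay at -0.38, -0.13 and -0.49, the last without overlap.

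Farnesyl pyrophosphate is also drawn into other products. Of 12 genes of these branches 8 were higher and 4 lower, with a median of 0.022, and none passed limma's test. Without lean 14, and likewise without obese 42, 5 of 12 were higher, with medians of -0.0075 and -0.027. Nus1, a subunit of the enzyme that makes dolichol, was higher without overlap by 0.49 (SE 0.13, limma adjusted p = 0.295). Its 2 dimmer probe sets were higher by 0.055 and 0.24 and overlapped. Ggps1, which makes geranylgeranyl pyrophosphate for protein prenylation, lay at -0.38 (SE 0.11), also without overlap on its brightest probe set, and its other 2 lay at -0.071 and -0.12. Pggt1b and Rabggtb, which attach that group to proteins, lay at -0.37 (SE 0.17) and -0.16 (SE 0.10).

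**Figure D4:**
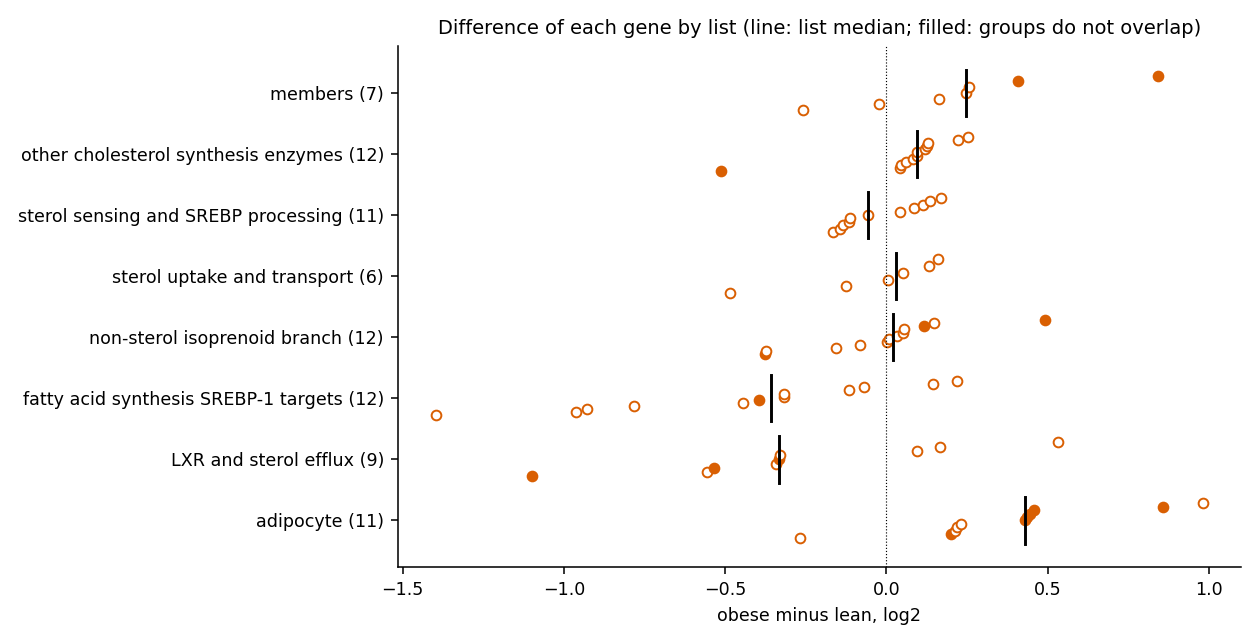
Difference between obese and lean arrays on the log2 scale for each gene, by list, with 1 point per gene at its brightest probe set, a black line at the list median and filled points where the groups do not overlap. The number of genes measured follows each list name. The member median lies at 0.25, the other cholesterol enzymes at 0.094, fatty acid synthesis at -0.36 and adipocyte markers at 0.43.

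Markers of several cell types of the depot also lay higher or lower on average between the diet groups. Fewer cells of a type and less RNA per cell cannot be told apart in such samples. Adipocyte markers were higher for 10 of 11 and lower for 1, with a median of 0.43. Of the 11, 6 were higher without overlap, where 12.2% of all genes were. Their mean level was 11.25 to 11.44 on lean and 11.64 to 11.89 on obese arrays. Adiponectin (Adipoq), which defines adipocytes, lay at 12.42 to 12.56 on lean and 12.63 to 12.83 on obese arrays, so the labelled tissue carried its marker on every array. Insig1 minus the adipocyte mean, both centred, was -0.42, 0.11 and -0.38 on lean 14, 18 and 19 and 0.12, 0.22 and 0.34 on obese 29, 32 and 42. It was higher by 0.46 on the obese arrays (exact two-sided permutation test, p = 0.10, the smallest possible), with obese 29 and lean 18 nearly level. With the adipocyte mean as a covariate in limma the Insig1 difference was 0.36 (adjusted p = 0.999), and Fdps, Lss and Cyp51 were at -0.82, -0.45 and -0.50. That covariate itself separates the diets, so the fit has little left to tell them apart.

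Macrophage markers were lower for 14 of 14 (mean level 9.54 to 10.07 on lean and 8.60 to 9.69 on obese arrays), and T and NK cell markers for 12 of 13 (5.56 to 6.04 and 5.01 to 5.58). Smooth muscle and pericyte markers were lower for 9 of 9 and endothelial markers for 8 of 8, and progenitor markers were lower for 4 of 7. Of all 14217 genes, 6587 were lower on average. The endothelial mean was 8.38 on obese 29 and 8.89 on obese 32, below the lean arrays. On obese 42 it was 9.33, the highest of all arrays. The smooth muscle and pericyte mean was 9.24 on lean 14 and 10.18 on lean 19. On lean 18 it was 8.25, inside the obese range of 8.21 to 8.41. The part of these cell types in the values of Insig1 and the enzymes was not tested. Pancreatic acinar markers were lower for 12 of 13, and their mean level was 9.11 on lean 14 against 4.84 to 5.24 elsewhere. Without lean 14, 12 of 13 were higher, with a median of 0.25. The elastase Cela3b was also high on other arrays, at 9.33 on lean 18 and 9.13 on obese 29 against 9.65 on lean 14. Cpa1, the 1 of the 13 that was higher with all arrays, lay at 8.14 on obese 32 and 6.51 on obese 29 against 8.66 on lean 14. Lean 14 was also the lowest array for Insig1, and without it Insig1 was higher by 0.69. Among control probe sets for RNA quality, signal at the 3′ end exceeded that at the 5′ end most on obese 42 when 3 controls were averaged, by 1.28 against 0.79 to 1.10 elsewhere. Of the 3, Gapdh and beta-actin were highest on obese 42, at 0.82 and 1.98, and hexokinase was lowest there, at 1.04 against 1.05 to 1.33. Obese 42 is also the 1 array that the labels do not describe as re-analysed. Without obese 42 Insig1 was higher by 0.83. With those 5 arrays 4 of 7 members, Idi1 and Cyp51 among them, were higher without overlap, where 20% of all genes were.

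Genes whose level over the 6 arrays was closest to that of Insig1 were sought among 7080 genes above the median level, by the root mean square distance between centred log2 values. The nearest were Pmepa1, an inhibitor of TGF-beta signalling, at 0.12, C2cd2 at 0.14, the membrane protein stomatin (Stom) at 0.14, Irs3, an insulin receptor substrate of rodent adipocytes, at 0.16, and Crebl2 at 0.17. Each was highest on lean 18 among lean arrays and higher on all obese arrays, with differences of 0.63 to 0.90. For the mean of the 6 enzymes the nearest were the peroxiredoxin Prdx5 at 0.032, Mrpl40 at 0.052, Bcap31 at 0.058, the integrin Itgb5 at 0.059 and Slc48a1 at 0.059. These had differences of 0.068 to 0.20, and obese 32 was the highest array for each. Both sets were picked by likeness over these same arrays, so a like order of rats and a like difference follow from the search. Members and uncharacterised loci were passed over in this search, so no member could appear. None of these 10 genes was a sterol synthesis enzyme outside the members.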

How the data were processed

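The deposited values were log2 expression values per probe set of Affymetrix rat arrays, and RMA in the affy package made them, per the submitters' processing notes. Versions and the arrays normalized together were not given in the sources used here. Of 31099 probe sets 57 controls were left out. The platform annotation gave 1 symbol for 20826, several for 436 and none for 9780. A gene was read at its brightest probe set, judged by the mean of the 6 arrays.

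The diets were compared by limma 3.58.1 under R 4.3.3 (lmFit, eBayes, constant prior, two-sided, no covariate) on all 31042 probe sets, with Benjamini-Hochberg adjustment and calls at an adjusted p under 0.05. Intervals are limma's, unadjusted. The fit was tested on simulated data. Single values used exact permutation tests (scipy 1.17.1). Rat numbers differ between groups, so the groups hold different rats. Limma's p-values set each difference against the spread among rats within groups, which eBayes moderates over all probe sets.

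Members and the 14 gene lists (161 entries, 144 matched) were chosen with earlier results of these data known. Named were all members, any gene of the cholesterol enzyme and sterol sensing lists, up to 4 genes of each other list by smallest p, and the 5 nearest profiles. Adipoq, Cpa1 and Abca1 were chosen after their values were seen. Alternatives covered scaling, filters, probe set choice, prior, array weights, arrays left out and covariates. Upstream sequence came from RefSeq, build GRCr8.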

Additional observations from a re-analysis of the deposited data

How the results depend on the processing

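Insig1 and Fdft1 kept their direction under all 17 alternatives. Sqle did too, but came down to -0.014 without both lean 14 and obese 42 and reached -0.41 without obese 29. No member was called under any of them. Insig1 ranged from 0.36 with the adipocyte covariate, an alternative chosen after seeing the data, to 1.03 without lean 18, with adjusted p from 0.176 to 0.999. Idi1 changed sign with median centring (0.0013), quantile normalization (0.011), the mean of its probe sets (0.015), array weights (0.10), the acinar covariate (0.0028), the 3′ minus 5′ covariate (0.22) and without both lean 14 and obese 42 (0.33), and ranged from -0.20 to 0.28 with single arrays left out. Fdps ranged from -0.046 to 0.36 with single arrays left out. With the adipocyte covariate Fdps was -0.82, Lss -0.45 and Cyp51 -0.50, so 2 of 7 members were higher rather than 5. That count was 4 to 6 with single arrays left out. The cause was not tested.

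The 3 called probe sets became 6 at an adjusted p under 0.10, and 1 with the brightest probe set a gene (14217 tested), without both lean 14 and obese 42, or with the acinar or 3′ minus 5′ covariate. They became 0 with the adipocyte covariate, and 1 to 31 with single arrays left out, the 31 without obese 42. Members without overlap in either direction numbered 2, and 4 without both lean 14 and obese 42, with 2 to 4 over single arrays left out, where 20.4%, 46% and 27.2% to 35.5% of all genes did not overlap. Insig1 against Insig2 ranged from 0.78 to 1.16 with single arrays left out, and the 3′ minus 5′ difference from 0.017 to 0.21 around 0.12 (exact two-sided permutation test, p = 0.40). No paired analysis was possible because the rat numbers of the groups differ. Dim probe sets such as that of Sqle limit what the signal over background can show.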

Other observations

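Genes of sterol uptake and transport, of which 6 were measured, had 4 higher and 2 lower members and a median of 0.028. Scarb1, the receptor that takes up cholesterol from high-density lipoprotein, lay at -0.49 (SE 0.18, limma adjusted p = 0.383), and its second probe set at -0.42 (SE 0.24). Lipa, the lysosomal lipase that frees cholesterol from esters, lay at -0.12, while Stard4 and Tmem97, a sterol carrier and a sterol-regulated membrane protein, were higher by 0.13 and 0.16.

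Probe sets of 1 enzyme did not always share the order of rats. Sc5d, the sterol desaturase, was lowest on obese 42 at 6.96 on its brightest probe set (difference 0.083, SE 0.31). Another probe set of the same gene was highest on obese 42 at 7.47, where it was higher on the obese arrays without overlap by 0.35 (SE 0.13, limma adjusted p = 0.383).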
